A study of Arabidopsis thaliana with 16 samples.

Results

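The genes described here are 35 photosynthesis genes of the Arabidopsis thaliana plastid genome. They were chosen by name: every gene with a plastid locus tag (ArthCp) whose symbol begins with psa, psb or pet, the ATP synthase genes atpA, atpB, atpE, atpF, atpH and atpI, rbcL, and ycf3 and ycf4. Each had 1 probe set of its own on the Affymetrix ATH1 array, so that 35 of the 22810 probe sets were used, among 69 plastid-encoded genes with a probe set. By complex, 5 genes encode photosystem I subunits, and the 15 with psb symbols were grouped with photosystem II. Another 6 belong to the cytochrome b6f complex and 6 to the ATP synthase, 1 encodes the large subunit of Rubisco, and 2 encode assembly factors of photosystem I. The rule uses names alone, though the set was chosen with earlier results of these data known.

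RNA of whole shoots and whole roots was hybridised to 16 one-colour arrays, 2 in each of 8 groups. The first 4 groups were wild-type plants in hydroponic culture, harvested at 7 weeks: Zn-deficient shoots, control shoots, Zn-deficient roots and control roots. These plants had all spent 4 weeks in control solution before the last 3 weeks in Zn-deficient or control solution. The other 4 groups were hma2 hma4 shoots, WT shoots, hma2 hma4 roots and WT roots, all of plants kept on agar with control medium for 21 days, of which 14 followed a move to vertical plates at 7 days. In wild-type plants the transporters HMA2 and HMA4 export Zn to the xylem on its way to the shoot, and hma2 hma4 plants carry mutations in both; the labels name neither the alleles nor the number of plants per sample. Nothing in the labels says that replicates came from separate cultures, so every p-value measures the spread between these arrays, which may be technical.

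In the chloroplast, photosystem II takes electrons from water, the cytochrome b6f complex passes them on to photosystem I, and the proton gradient that results drives the ATP synthase, while Rubisco fixes carbon dioxide in the stroma. Each of these complexes is built from subunits encoded in the plastid and subunits encoded in the nucleus. Most plastid genes are transcribed in polycistronic units by a bacterial-type plastid RNA polymerase together with a phage-type enzyme, and the levels of their RNAs depend strongly on processing and stability. Root plastids carry the same genome but usually lack developed thylakoids.

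Values are MAS5 signals, which the authors had scaled to a trimmed mean of 500 on each array, and array medians lay between 136.1 and 217. The number of arrays limits the precision. A signal was called above background when it exceeded 52.2, the highest signal of the Trpn control probe sets. The tissue labels were borne out by the 2 root markers, of 15 listed, that had a probe set of their own. The peroxidase gene AT5G17820 gave at most 156.9 on shoot arrays, against at least 3597 on root arrays. EXPA7, an expansin of root hairs, gave at most 106.2 on shoot arrays, against at least 331.8 on root arrays. Together the 35 plastid genes took 1.08% to 1.92% of the summed signal on shoot arrays, against 0.131% to 0.225% on root arrays. In whole organs, a lower plastid content and less RNA per plastid cannot be told apart. Levels of different genes are not compared, because probe sets differ in response. The sources used here do not state how cDNA was primed for labelling. Plastid RNAs mostly lack long poly(A) tails, so these signals need not follow their amounts, and the effect of priming was not tested.

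**Figure D1:**
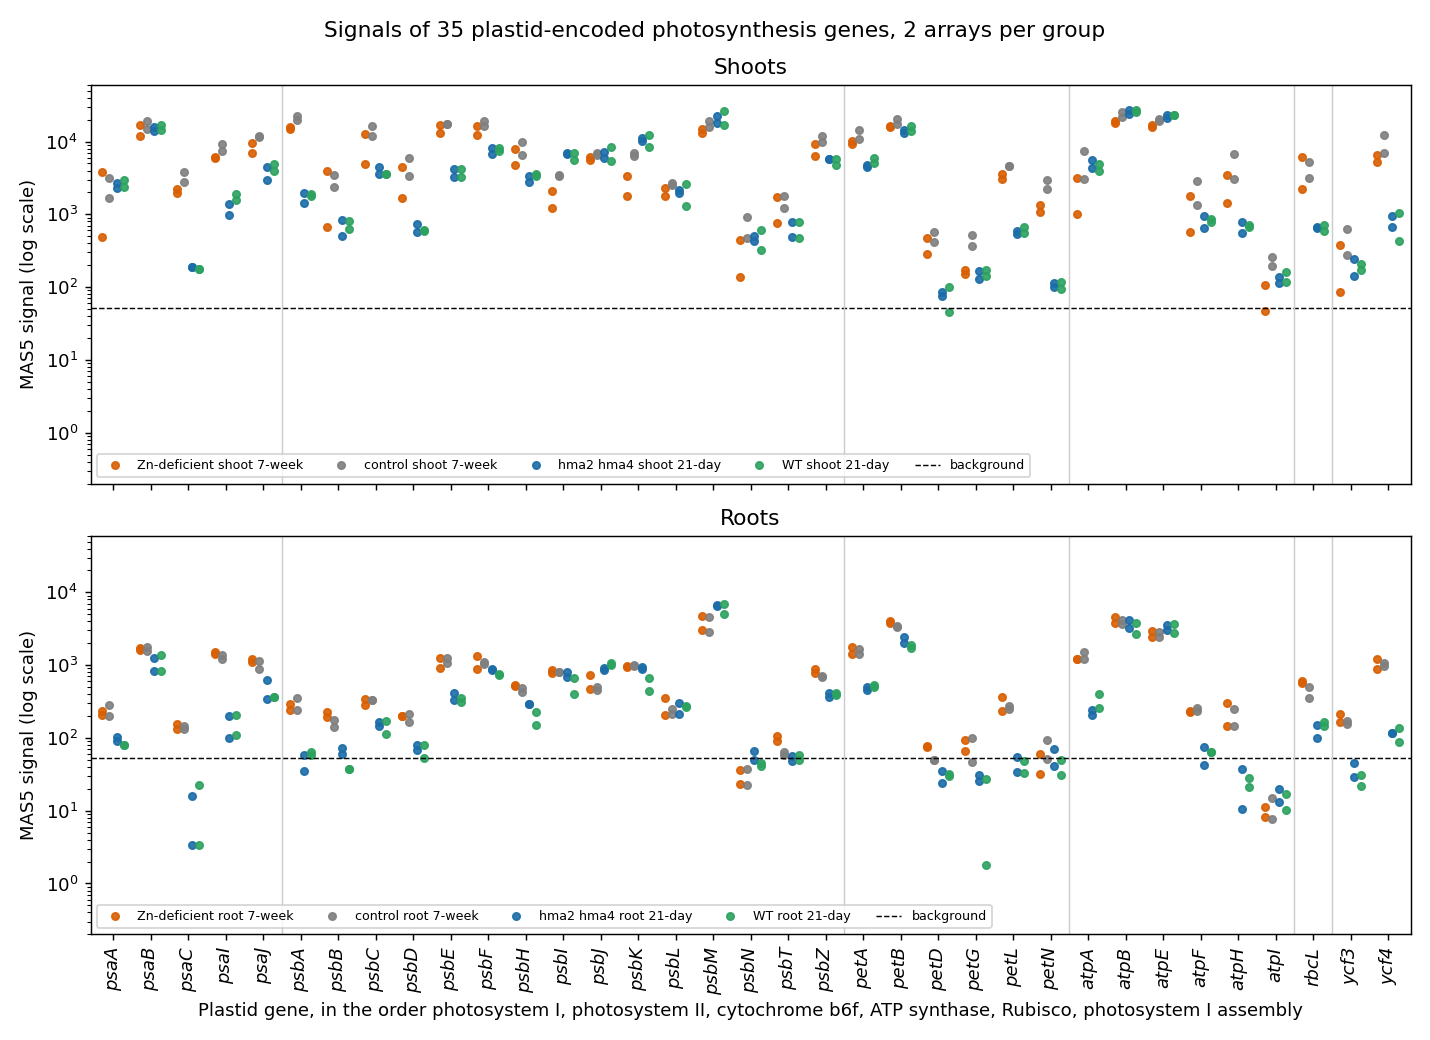
MAS5 signal (log axis) of each of the 35 plastid genes on every array, shoots above and roots below, with 1 point per array and the 4 groups of a tissue side by side. The dashed line is the background of 52.2. All shoot points but 1 of atpI and 1 of petD lie above it, whereas all root points of atpI, all but 1 of psbN and some root points of other genes, most of them from 21-day plants, lie below.

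Nearly all plastid photosynthesis genes were higher in shoots than in roots, in both experiments. In 7-week control plants 34 of the 35 were higher in shoots (limma, adjusted p under the threshold of 0.05), where 19.8% of all probe sets tested were. Their median log2 difference was 3.46, against -0.353 over all probe sets. In Zn-deficient plants 32 were higher (18.4% of all probe sets) with a median of 2.80. In hma2 hma4 plants 34 were higher (21.6% of all) with a median of 3.08, and in 21-day WT plants 34 were higher (21.6% of all) with a median of 3.37. None was lower in any of these comparisons.

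Both reaction-centre genes of photosystem I were among them. The signals of psaA were 3199 and 1674 in 7-week control shoots, against 282.7 and 203.3 in control roots, and on the 21-day arrays 2970 and 2342 in WT shoots, against 80.68 and 80.3 in WT roots. Those of psaB were 19450 and 14980 in control shoots, against 1757 and 1575 in control roots. Shoot and root arrays did not overlap for either gene. The log2 difference of psaA in 21-day WT plants, 4.90 ± 0.165 (SE, n = 2 arrays each; limma, adjusted p = 1.11e-09), was the largest of that comparison. For psaC, which encodes the iron-sulfur subunit that hands electrons to ferredoxin, both 21-day root groups lay below background, with 15.84 and 3.429 in hma2 hma4 roots and 3.335 and 22.77 in WT roots. Its shoots were therefore at least 3.60-fold higher in hma2 hma4 and at least 3.41-fold higher in WT.

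In photosystem II, psbA, the gene of the D1 protein that is replaced continually in the light, had the largest difference of the 7-week plants. Its signals were 22100 and 19830 in control shoots, against 351.4 and 242.3 in control roots, a log2 difference of 6.13 ± 0.246 (SE; limma, adjusted p = 4.43e-07). In Zn-deficient plants they were 16020 and 14950 in shoots, against 239.6 and 292.5 in roots, with a log2 difference of 5.83 ± 0.246. Every shoot array of psbA thus stood far above every root array. For psbD, encoding the D2 partner of D1, signals were 5958 and 3343 in control shoots, against 213.8 and 166.0 in control roots. For the inner antenna proteins, psbC gave 16290 and 12080 in control shoots, against 330.1 and 335.7 in control roots, and psbB gave 3462 and 2382, against 177.9 and 141.8. Over all 15 photosystem II genes the median log2 difference was 4.04 in 7-week control plants and 3.45 in 21-day WT plants, and the smallest in the WT was that of psbM, a small subunit at the dimer interface, at 1.84 ± 0.218.

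The cytochrome b6f genes held the exceptions at 21 days. petA, the cytochrome f gene, was higher in shoots in both experiments, with 5863 and 5105 in 21-day WT shoots, against 540.7 and 505.8 in WT roots. The cytochrome b6 gene petB gave 13930 and 16480 in WT shoots, against 1884 and 1725 in WT roots. petD, the gene of subunit IV, gave only 101.9 and 45.81 in WT shoots, against 30.35 and 31.76 in WT roots, and did not pass the test (log2 difference 0.98 ± 0.444, limma, adjusted p = 0.0783). One of its WT shoot arrays lay below background. petN, a small subunit, did not pass in hma2 hma4 plants, where its signals were 100.6 and 112.5 in shoots, against 69.72 and 41.2 in roots (0.89 ± 0.365, adjusted p = 0.0548). In 7-week control plants the same gene gave 2972 and 2203 in shoots, against 52.14 and 94.08 in roots, a log2 difference of 5.03 ± 0.373.

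Among ATP synthase genes, atpA and atpB encode the alpha and beta subunits of the catalytic head. Signals of atpB were 25570 and 21490 in control shoots, against 3689 and 4160 in control roots. Those of atpA were 7434 and 3088 in control shoots, against 1495 and 1199 in control roots, and in Zn-deficient plants 3193 and 1013 in shoots, against 1231 and 1234 in roots. The Zn-deficient shoots of atpA lay on both sides of the Zn-deficient roots, and that difference did not pass (0.54 ± 0.542, limma, adjusted p = 0.429). rbcL, the Rubisco large subunit gene, gave 5306 and 3141 in control shoots, against 358.9 and 502.6 in control roots, and 585.2 and 714.5 in 21-day WT shoots, against 166.7 and 146.9 in WT roots. Its groups did not overlap in either experiment, with log2 differences of 3.24 ± 0.454 and 1.99 ± 0.211.

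Of the assembly factors, ycf4 passed in all 4 comparisons. ycf3 did not pass in either 7-week comparison: its signals were 378.5 and 86.37 in Zn-deficient shoots, against 165.2 and 212.9 in Zn-deficient roots, and 626.6 and 278.5 in control shoots, against 157.0 and 173.1 in control roots. The arrays overlapped in Zn-deficient plants only (-0.03 ± 0.614, adjusted p = 0.967) and not in control plants (1.30 ± 0.614, adjusted p = 0.102). petG, another small cytochrome b6f subunit, also missed the threshold in Zn-deficient plants (0.94 ± 0.383, adjusted p = 0.0685).

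**Figure D2:**
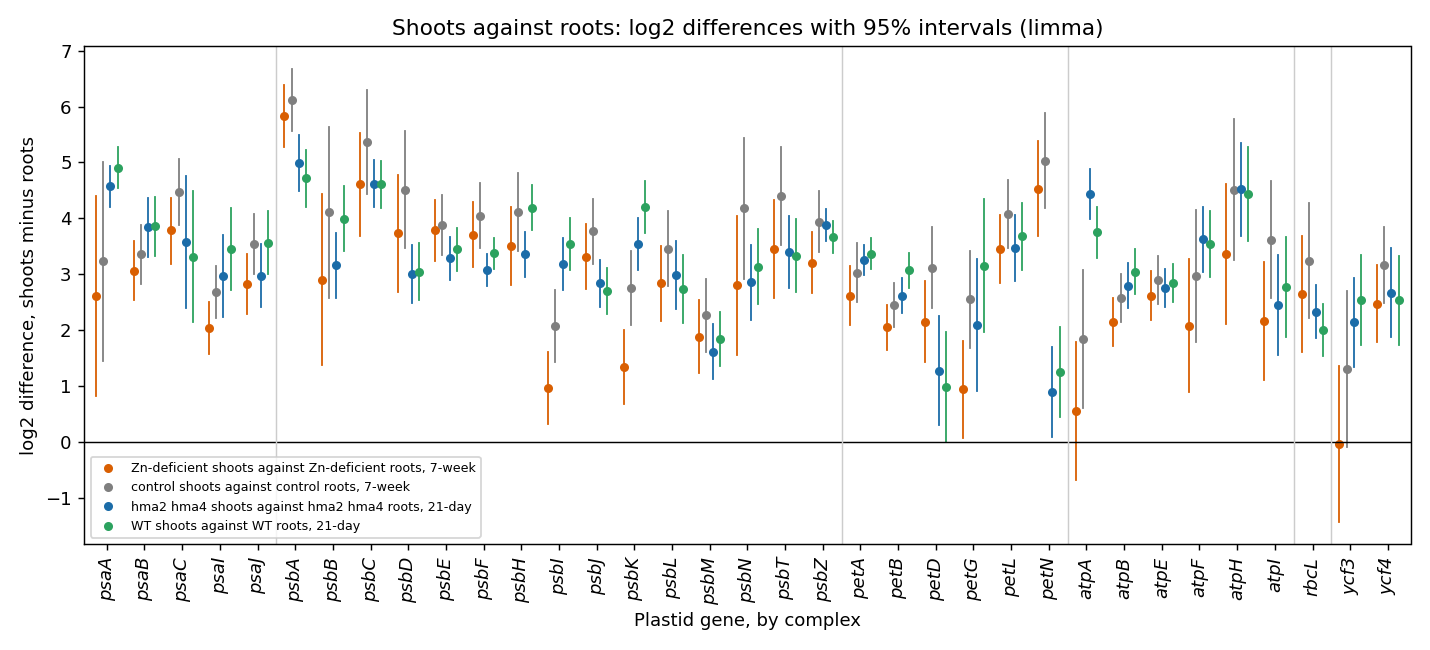
The log2 difference between shoots and roots (vertical axis) for each plastid gene in Zn-deficient and control plants at 7 weeks and in hma2 hma4 and WT plants at 21 days; points are limma estimates from 2 arrays per group and bars their 95% intervals. All points but that of ycf3 in Zn-deficient plants lie above 0, and psbA stands highest in 7-week plants. The estimates of petN differ most between control and WT plants, and its WT root arrays lay below background.

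On the 21-day arrays most of these genes were measured in roots too, with 23 of the 35 above background on both hma2 hma4 root arrays and 24 on both WT root arrays. No array was above background for 6 genes in hma2 hma4 roots (psaC, petD, petG, atpH, atpI and ycf3) and for 10 in WT roots (those 6 with psbB, psbN, petL and petN). In the 7-week plants this held for 2 genes in Zn-deficient roots (psbN and atpI) and 3 in control roots (those 2 with petD). Folds between tissues are lower bounds there: in 21-day WT plants shoots were at least 13.7-fold higher for psbB, at least 13.3-fold for atpH, which encodes the ring subunit of the ATP synthase, and at least 11.6-fold for petL. The bound was only 1.31-fold for petD.

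Other genes of the chloroplast also had positive median differences between shoots and roots, of other sizes. The 13 nuclear photosynthesis genes with a probe set of their own, of 70 listed, were higher in shoots in all 4 comparisons, with medians of 7.39 in Zn-deficient, 7.85 in control, 5.56 in hma2 hma4 and 5.24 in WT plants. For plastid genes of the NDH complex, which returns electrons from ferredoxin to the plastoquinone pool, the medians were 2.94, 3.69, 3.53 and 3.60 in that order. For plastid genes of the transcription and translation machinery they were 0.83, 1.23, 1.96 and 2.42. Of those machinery genes 7 of 19 passed in Zn-deficient and 9 of 19 in control plants at 7 weeks, and all 19 did in hma2 hma4 and in WT plants at 21 days. Of all probe sets 50.8%, 54.9%, 61.4% and 61.1% passed in either direction, in that order.

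In Zn-deficient shoots all 35 genes had lower estimates than in control shoots, and none passed the test. The median log2 difference was -0.493, against -0.0228 over all probe sets, of which 51.7% had a negative difference. With limma 0.152% of all probe sets were called lower at this comparison. At an unadjusted p under 0.05 there were 8 of the 35 genes, where 7.25% of all probe sets were lower at that level. Both Zn-deficient arrays lay below both control arrays for 22 of the 35, where 21% of all probe sets did. The 35 genes were measured on the same 4 arrays and share transcripts, so they are not separate pieces of evidence. The sum of their signals was 1.52% and 1.23% of all signal on Zn-deficient shoot arrays, against 1.92% and 1.59% on control shoot arrays.

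The 9 lowest estimates included psbK, psbN and psbI of the photosystem II group, and petG and petN of the cytochrome b6f complex. The others were atpI, atpA and atpH of the ATP synthase, and the assembly factor ycf3. psbK, encoding a small subunit of the photosystem II core, gave 3316 and 1810 in Zn-deficient shoots, against 7064 and 6335 in control shoots (log2 difference -1.45 ± 0.291, SE, 95% interval -2.11 to -0.785; limma, adjusted p = 0.0637). Its neighbour psbI gave 2103 and 1220 in Zn-deficient shoots, against 3495 and 3346 in control shoots (-1.09 ± 0.281, adjusted p = 0.11). Neither gene's groups overlapped. The adjusted p of psbK was the smallest of the 35, and over the alternative settings it ran from 0.00736, in 1 fit of all 16 arrays, to 0.278, without the first control array. petG gave 149.5 and 171.8 in Zn-deficient shoots, against 524.8 and 364.8 in control shoots (-1.41 ± 0.383, adjusted p = 0.122), and petN 1353 and 1060, against 2972 and 2203 (-1.09 ± 0.373, adjusted p = 0.196). These groups did not overlap either. psbN gave 441.6 and 138.6 in Zn-deficient shoots, against 929.5 and 478.2 in control shoots (-1.40 ± 0.551, adjusted p = 0.251), and all Zn-deficient values lay below the control values. For ycf3 the arrays overlapped (-1.16 ± 0.614, adjusted p = 0.39).

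Over the ATP synthase genes the median difference was -0.99, the lowest of the complexes. The low values were those of 1 transcription unit, with -1.55 for atpI, -1.03 for atpH, -0.953 for atpF and -1.41 for atpA. In the unit of atpB and atpE the differences were -0.333 and -0.282. atpI, the gene of the membrane subunit that conducts protons, gave 106.3 and 47.08 in Zn-deficient shoots, against 257.9 and 195.8 in control shoots (-1.55 ± 0.463, adjusted p = 0.149), and 1 of the Zn-deficient arrays lay below background. atpA gave 3193 and 1013 in Zn-deficient shoots, against 7434 and 3088 in control shoots (-1.41 ± 0.542, adjusted p = 0.24). Its groups overlapped, while those of atpI did not. atpB, by contrast, gave 19250 and 17980 in Zn-deficient shoots, against 25570 and 21490 in control shoots, a log2 difference of only -0.33 ± 0.19.

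Estimates for the core subunits of the other complexes ran from -0.83 (psbC) to -0.14 (rbcL), and none passed. psaB gave 16700 and 12010 in Zn-deficient shoots, against 19450 and 14980 in control shoots (-0.27 ± 0.232). psbA gave 16020 and 14950, against 22100 and 19830 (-0.44 ± 0.246). petA gave 9286 and 10160, against 14480 and 10920 (-0.37 ± 0.23), and petB 15860 and 16170, against 20200 and 17350 (-0.23 ± 0.175). The 2 groups of arrays did not overlap for psbA, petA and petB and did for psaB. rbcL stood nearest to 0, with 6110 and 2261 in Zn-deficient shoots, against 5306 and 3141 in control shoots (-0.14 ± 0.454), and its Zn-deficient arrays lay on either side of both control arrays. petD gave 467.0 and 280.8 in Zn-deficient shoots, against 579.2 and 417.1 in control shoots, which overlapped (-0.43 ± 0.318).

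The 95% intervals were wide. For 24 of the 35 genes the interval reached a 2-fold lower level or further, and for 11 it lay wholly within a 2-fold change in either direction; 8 lay wholly below 0. Medians by complex were -0.514 for photosystem I, -0.436 for photosystem II, -0.448 for cytochrome b6f and -0.915 for the 2 assembly factors. All 68 plastid-encoded probe sets tested had negative differences (median -0.542), with medians of -0.783 over 10 NDH genes and -0.605 over 19 machinery genes, and none passed. The 13 nuclear photosynthesis genes were also all negative, with a median of -0.336, and none passed. Of 11 mitochondrion-encoded probe sets 3 were negative and the median was 0.189.

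**Figure D3:**
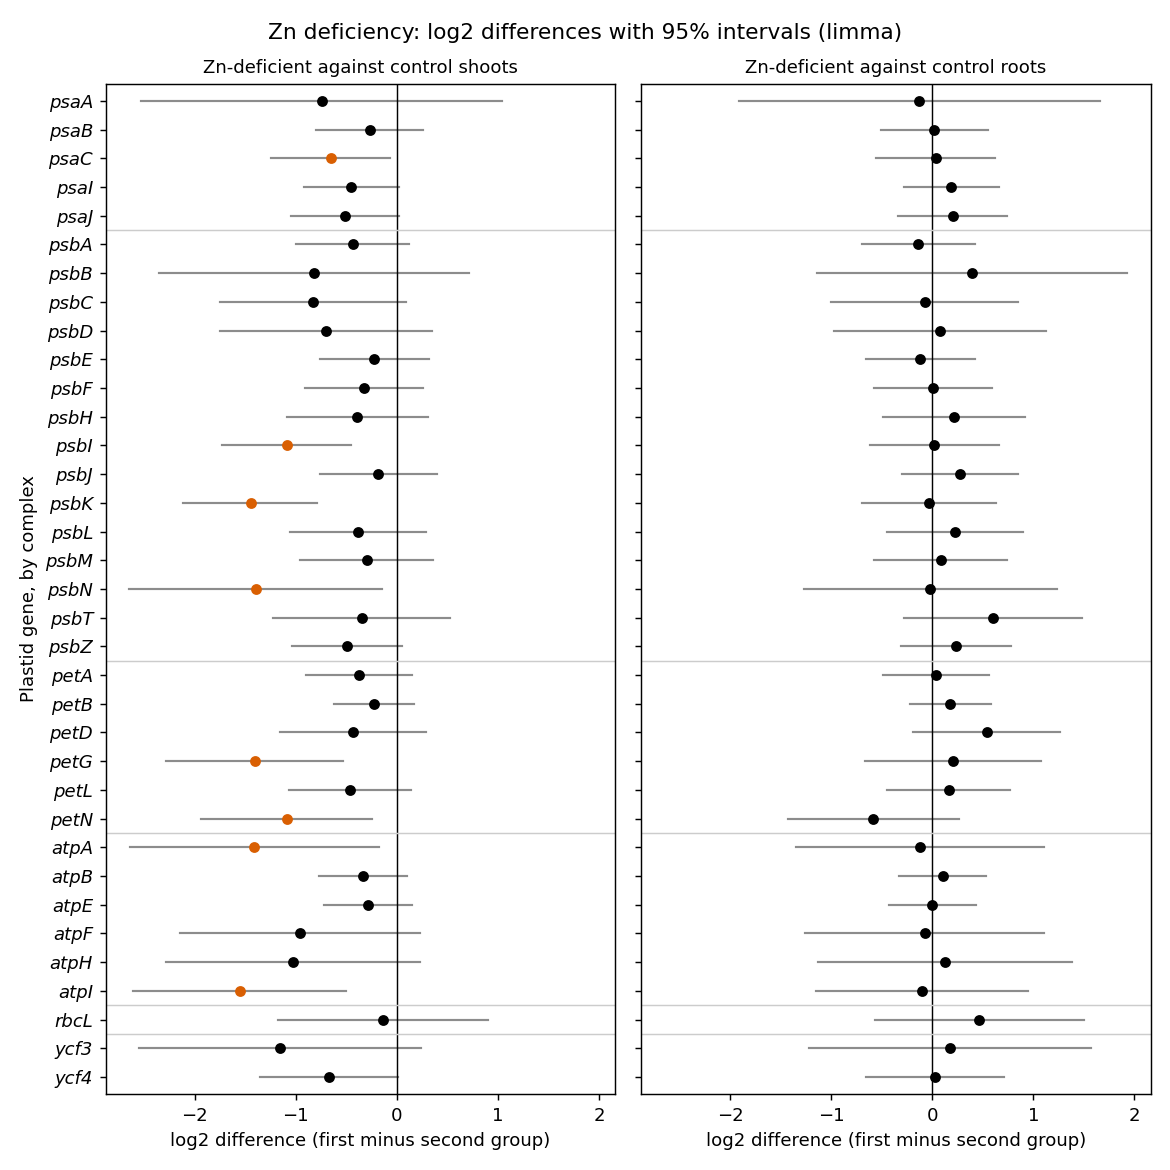
The log2 difference between Zn-deficient and control plants (horizontal axis) for each plastid gene in shoots (left) and roots (right), with limma's 95% intervals from 2 arrays per group; orange points have an unadjusted p under 0.05. All 35 shoot estimates lie left of 0, from -1.55 (atpI) to -0.14 (rbcL), and 8 are orange; root estimates lie around 0.

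In roots, estimates for Zn deficiency lay on both sides of 0. The median log2 difference of the 35 genes was 0.0805, 10 were negative, and none passed the limma test, where 0.106% of all probe sets did. None reached an unadjusted p under 0.05 either, where 2.31% of all probe sets did. The highest estimate was that of psbT, a small photosystem II subunit, with 106.3 and 89.69 in Zn-deficient roots, against 59.17 and 64.22 in control roots (0.60 ± 0.385, adjusted p = 1). The lowest was that of petN, with 31.7 and 60.71, against 52.14 and 94.08 (-0.59 ± 0.373, adjusted p = 1), and its arrays overlapped while those of psbT did not. Both Zn-deficient root arrays lay above both control arrays for 8 of the 35 genes, where 17.6% of all probe sets did. They lay below for 1, where 15.1% of all probe sets did. The core subunits psbA and psbD gave -0.14 ± 0.246 and 0.08 ± 0.461. The 95% interval lay within a 2-fold change for 21 of the 35 genes.

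The difference between the shoot and the root response was tested as an interaction. All 35 estimates were negative (median -0.691, lowest petG at -1.61 ± 0.541), meaning a lower value relative to control in shoots than in roots, but none passed with limma. Of all probe sets 0.0117% did. At an unadjusted p under 0.05 there were 3 genes, petG, psbK and psbI, with adjusted p of 0.428, 0.375 and 0.465. All 3 were negative, where 8.88% of all probe sets reached that level in either direction and 4.06% with a negative estimate. A response confined to shoots was therefore not shown for any of the genes.

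The 2 Zn-deficient shoot arrays differed from each other more in these genes than did the arrays of any other group. The gap exceeded 1 on the log2 scale for 12 of the 35 genes (34.3%, against 15% of all probe sets), for 4 genes (11.4%, against 9.87% of all) between the control shoot arrays, and for 0 to 3 genes in each of the other groups. The largest was that of psaA, with 3863 on the first Zn-deficient array and 488.6 on the second, followed by psbB with 3984 and 663.2. For both genes the control shoot values lay between those of the 2 Zn-deficient arrays. psbC gave 12750 and 4880 and psbD 4521 and 1665 on the same arrays, with differences from control of -0.83 ± 0.406 and -0.70 ± 0.461.

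Genes of 1 transcription unit often had gaps of like size. In the unit of atpI, atpH, atpF and atpA the gaps were 1.05, 1.27, 1.62 and 1.65 between the Zn-deficient shoot arrays, against 0.384, 1.10, 1.11 and 1.27 between the control shoot arrays. psbD and psbC, whose reading frames overlap, had gaps of 1.44 and 1.38 in Zn-deficient shoots, while psbZ of the same unit had 0.519. psbE, psbF, psbL and psbJ, which encode cytochrome b559 and small subunits beside it, ran slightly the other way, at -0.373, -0.372, -0.362 and -0.15. The pattern was not general: psaA and psaB, which are cotranscribed, had gaps of 2.96 and 0.475, and in the unit that starts with psbB the gaps were 2.57 for psbB, 1.16 for psbT, 0.757 for psbH, -0.0276 for petB and 0.718 for petD. The first Zn-deficient shoot array also had the highest 3′ to 5′ signal ratio of the actin control probe sets among 7-week arrays, 8.57, against 1.74 on the second. A second group of actin control probe sets did not separate them, with a ratio of 1.83 on both arrays and its highest 7-week value, 2.85, on the first control shoot array. The part of these ratios in the gaps was not tested. Without the first array the median difference of the 35 genes from control shoots was -0.79 and all 35 were negative, and without the second it was -0.386 and 30 were negative.

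**Figure D4:**
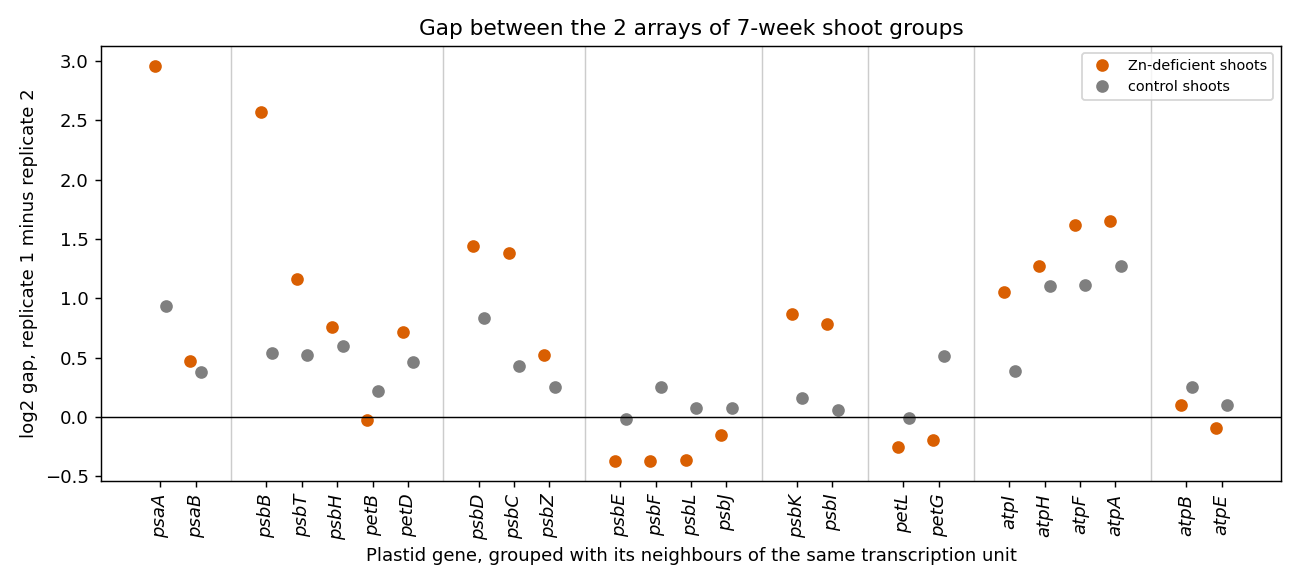
The log2 gap between the 2 arrays of a group, replicate 1 minus replicate 2 (vertical axis), for plastid genes grouped by transcription unit, in Zn-deficient and control shoots of 7-week plants; each point is 1 gene. psaA and psbB stand highest in Zn-deficient shoots at 2.96 and 2.57, and the 4 genes of the psbE unit lie just below 0.

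In hma2 hma4 shoots the plastid photosynthesis genes had levels close to those of WT shoots. None passed the limma test, where 0.299% of all probe sets did, and none had an unadjusted p under 0.05, where 9.6% of all probe sets did. The median log2 difference was -0.0588, against -0.0361 over all probe sets, and 21 of the 35 estimates were negative. The sign of that median rests on single arrays: it was 0.0896 without the first hma2 hma4 shoot array and 0.0213 without the second WT shoot array, with 10 and 16 negative estimates. The 95% interval lay within a 2-fold change for 29 of the 35 genes. Together the genes took 1.08% and 1.11% of the signal on hma2 hma4 shoot arrays, against 1.11% and 1.15% on WT shoot arrays.

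The core subunits of both photosystems had differences smaller than their standard errors. psaA gave 2325 and 2682 in hma2 hma4 shoots, against 2970 and 2342 in WT shoots (-0.08 ± 0.165), and psaB 15950 and 14030, against 17020 and 14450 (-0.07 ± 0.239). psbA gave 1427 and 1986 in hma2 hma4 shoots, against 1760 and 1883 in WT shoots (-0.11 ± 0.231). The arrays of the 2 genotypes overlapped for these 3 genes. atpB gave 27380 and 24110, against 27510 and 25550 (-0.05 ± 0.184), and rbcL 644.1 and 671.6, against 585.2 and 714.5 (0.02 ± 0.211). The lowest estimate was that of psaI, a small subunit at the periphery of photosystem I, with 972.6 and 1408 in hma2 hma4 shoots, against 1879 and 1564 in WT shoots (-0.55 ± 0.332, limma, adjusted p = 0.664). petA had the smallest adjusted p, with 4806 and 4440, against 5863 and 5105 (-0.24 ± 0.122, adjusted p = 0.584). For psaI and petA the groups did not overlap. They were the 2 of the 35 genes with both hma2 hma4 arrays below both WT arrays, as were 21.1% of all probe sets. Another 2 genes had both above, as had 15.8% of all probe sets. The highest estimate was that of ycf4 at 0.22 ± 0.362, with 663.6 and 941.6, against 430.2 and 1058, which overlapped.

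In hma2 hma4 roots again none passed, where 0.00586% of all probe sets did, and the median was 0.143 with 14 negative estimates. Without the second WT root array the median was -0.0535 with 19 negative. At an unadjusted p under 0.05 there were 5 of the 35 genes, where 3.69% of all probe sets were. Each had an adjusted p of 1. psbK gave 944.3 and 879.4 in hma2 hma4 roots, against 673.7 and 439.8 in WT roots (0.73 ± 0.21), and psbI 813.0 and 678.6, against 675.8 and 406.4 (0.50 ± 0.21). psbH, a phosphoprotein of photosystem II, gave 289.1 and 296.3, against 225.9 and 150.8 (0.64 ± 0.181). The groups did not overlap for any of the 3, though psbI came close. Both hma2 hma4 root arrays lay above both WT arrays for 8 of the 35 genes, where 15.5% of all probe sets did. They lay below for 4, where 17.6% of all probe sets did. psbB gave 73.5 and 59.35 in hma2 hma4 roots, against 37.82 and 36.98 in WT roots, both of which lay below background, so that hma2 hma4 roots were at least 1.26-fold higher (0.71 ± 0.26). atpA ran the other way, with 240.7 and 203.5 in hma2 hma4 roots, against 397.4 and 257.2 in WT roots (-0.52 ± 0.205). The highest estimate, that of petG at 0.96 ± 0.536, rests on root signals below background in both genotypes. In the test of whether genotype acted differently in shoots and roots, none of the 35 passed, where 0.0469% of all probe sets did. An unadjusted p under 0.05 was reached by 5 of the 35 genes with limma, where 6.02% of all probe sets reached it. Of these 5 genes, 4 had a negative estimate, where 3.16% of all probe sets were lower at that level.

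**Figure D5:**
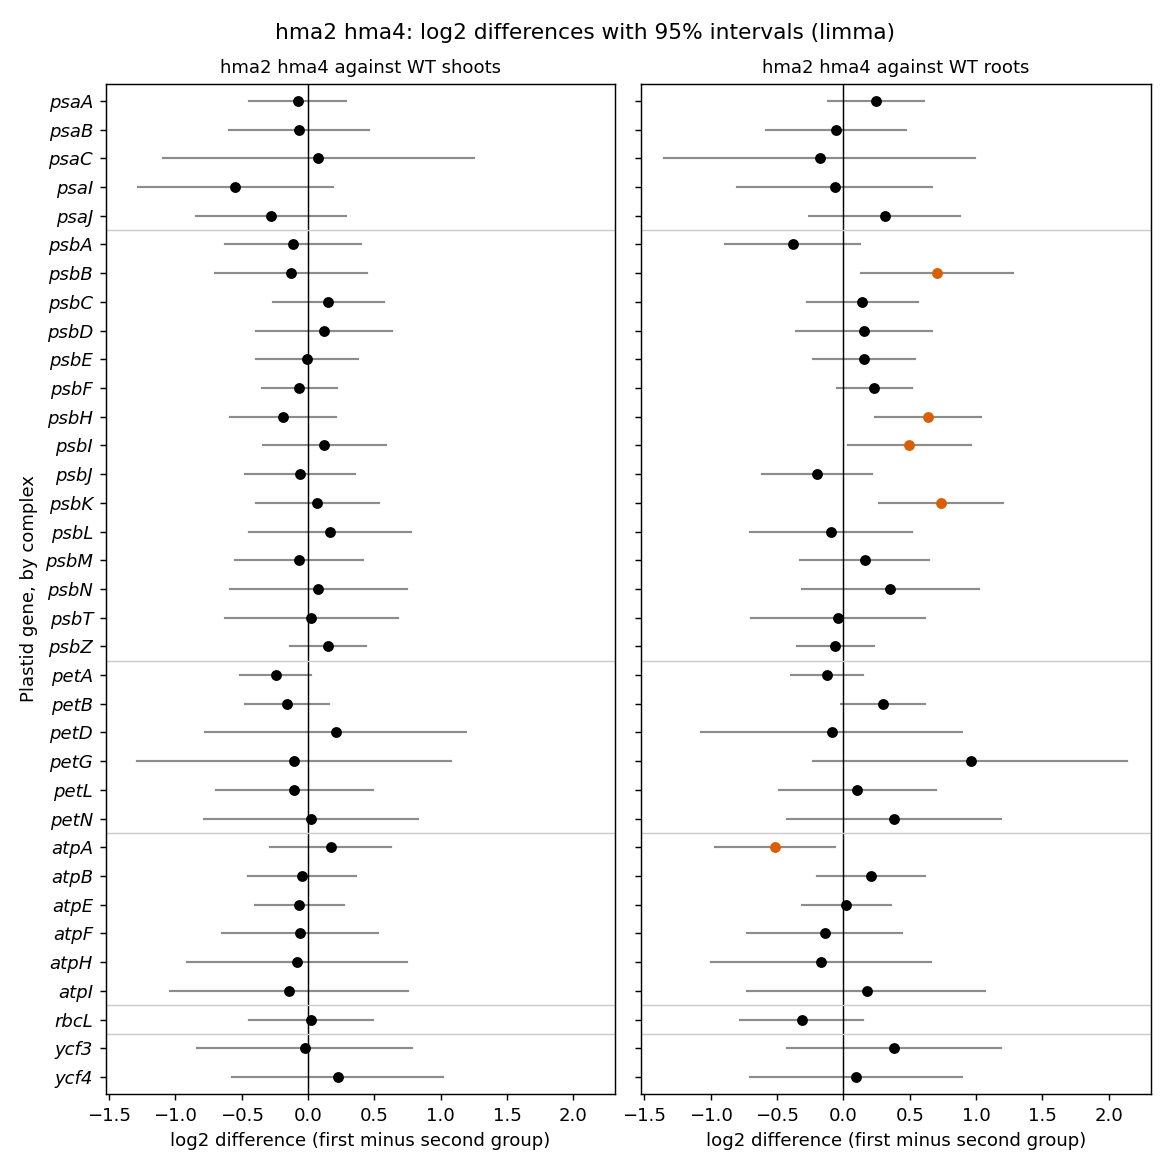
The log2 difference between hma2 hma4 and WT plants (horizontal axis) for each plastid gene in shoots (left) and roots (right), with limma's 95% intervals from 2 arrays per group; orange points have an unadjusted p under 0.05. Shoot estimates lie between -0.55 (psaI) and 0.22 (ycf4) with none in orange; in roots 5 are orange.

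The experiments differed in the level of these genes, and age and culture cannot be told apart in that difference, so no test is given. The median over the 35 genes of the log2 difference between 21-day WT shoots and 7-week control shoots was -1.21, against 0.061 over all probe sets. On every array 24 genes were below, where 30.8% of all probe sets were, and 3 were above, where 36% were. The range ran from -4.51 (petN) to 0.861 (psbI). Between 21-day WT roots and 7-week control roots the median was -1.26, against 0.0145 over all probe sets. There 28 genes were below on every array (33.8% of all probe sets) and 4 above (35.7% of all), and the range ran from -3.12 (ycf4) to 1.08 (psbJ). The 13 nuclear photosynthesis genes had medians of 0.0591 in shoots and 1.81 in roots, and in roots all 13 were above on every array. Lower levels at 21 days were not particular to the 35 genes. Before the filter on signal, 10 plastid NDH genes had medians of -2.27 in shoots and -1.62 in roots. For 18 mitochondrion-encoded probe sets the medians were -0.937 and -1.25, and for 20 plastid machinery genes 0.139 and -1.06. The 25S ribosomal RNA control probe set gave 1613 to 6920 on 21-day arrays, against 31.03 to 449.9 on 7-week arrays, and the 3′ to 5′ ratio of actin was 17.3 to 30.3, against 1.74 to 8.57. The ratio of the second actin group overlapped, with 2.45 to 3.68 on 21-day arrays, against 1.36 to 2.85 on 7-week arrays. The part of these in the levels of the plastid genes was not tested.

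Whether shoots exceeded roots by the same amount in both experiments was tested in 1 fit of all 16 arrays, as the shoot-root difference of 7-week control plants minus that of 21-day WT plants. This comparison was added after the values had been seen. Of the 35 genes 7 passed with limma, or 4 higher and 3 lower, where 24.2% of all probe sets passed, so the count was near the background. petN (3.79), petD (2.13), psbA (1.40) and psbJ (1.07) had the larger estimated shoot-root difference at 7 weeks, and psbK (-1.46), psbI (-1.47) and atpA (-1.91) the larger one at 21 days. The root signals of petD lay below background in both experiments, and those of petN did in 21-day WT plants. Neither gene's value is therefore a measured difference. psbK and psbI share a transcription unit. psbI gave 3495 and 3346 in 7-week control shoots, against 805.3 and 807.3 in control roots, and 5535 and 6981 in 21-day WT shoots, against 675.8 and 406.4 in WT roots.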

How the data were processed

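The authors deposited log2 signals, which per the submitters' processing notes came from MAS5 (the sources used here name no version). The values themselves show a scaling to a trimmed mean of 500 (2% cut at either end), and 2413 values are exactly 0. Signals were recovered from the deposited log2 values, 8 (the 10th percentile) was added, and log2 was taken again, which understates changes of dim genes; printed signals are without the 8. Control probe sets (64) were left out and probe sets with a mean above the 25th percentile were kept (17059, with all 35 plastid genes). Each experiment (8 arrays, 4 groups) had 1 model, fitted by lmFit and eBayes (with trend) of limma 3.58.1 under R 4.3.3, with Benjamini-Hochberg adjustment over all probe sets and a threshold of 0.05; intervals are 95%. A fold against a group with no array above 52.2 is a bound, the other group's geometric mean over that level. The script was tested on simulated data. Genes were named from the platform annotation (13513 probe sets with 1 gene) and RefSeq TAIR10.1; no genome or sequence was used, and none is printed. Values in every array are given for core subunits, for the extremes of each comparison and for the genes with the largest array gaps; psaC, ycf3, the genes that missed a tissue test and those at an unadjusted p under 0.05 were named after their values were seen. Genes and lists were chosen with earlier results of these data known.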

Additional observations from a re-analysis of the deposited data

Results flagged for a closer look

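The shoot-root difference of 7 plastid genes differed between the experiments in a test of the difference itself (limma, 16 arrays, 2 per group). The experiments differ in age and culture, which cannot be told apart. Ribosomal RNA control signals also differed between the experiments, as did an actin control ratio, and their part in this result was not tested. Of all probe sets 24.2% passed the same test, against 20% of the 35 genes. For petN the log2 shoot-root difference was 5.03 in 7-week control plants and 1.25 in 21-day WT plants, a difference of 3.79 ± 0.506 (SE; adjusted p = 0.000341). For petD it was 3.11 and 0.98 (2.13 ± 0.517, adjusted p = 0.0112), for psbA 6.13 and 4.72 (1.40 ± 0.346, adjusted p = 0.0121), and for psbJ 3.77 and 2.70 (1.07 ± 0.325, adjusted p = 0.0302). For psbK it was 2.75 and 4.21 (-1.46 ± 0.382, adjusted p = 0.0162), for psbI 2.07 and 3.55 (-1.47 ± 0.37, adjusted p = 0.0133), and for atpA 1.83 and 3.75 (-1.91 ± 0.642, adjusted p = 0.0446). The WT root arrays of petN and petD, the control root arrays of petD, 1 control root array of petN and 1 WT shoot array of petD lay below background. The shoot-root folds of petD are therefore bounds, at least 9.41 in control and at least 1.31 in WT plants, and its difference between the experiments was not measured. The WT shoot-root fold of petN is a bound too, so the 3.79 of petN is an estimate and not a measured difference. Without 1 array the 7 became 3 to 7, with 3 without WT root replicate 2 and 4 without WT shoot replicate 2 or control root replicate 2; psbJ and atpA missed the threshold most often.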

How the results depend on the processing

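Every count and median was computed again with other scalings, constants, filters and fits and without each array in turn; averaging several probe sets of a gene was not run, because each gene had 1. Zn-deficient shoots had no gene called, and 1 with median centring over all or over nuclear probe sets, with an added constant of 58, or with the replicate block, 3 in 1 fit of all 16 arrays, and 0 to 1 without 1 array. The 1 gene was psbK, and the 3 were psbK, psbI and atpI. Replicate numbers were not taken as pairs (no label ties them; the arrays' gaps correlated at 0.165 in shoots and -0.115 in roots of the Zn experiment over all probe sets, and at 0.727 and 0.371 over the 35 genes); with the replicate block 281 probe sets were called in Zn-deficient shoots, against 157 without it. With control root numbers crossed, 0 of the genes and 22 probe sets were called in Zn-deficient roots. Between 29 and 35 genes were called higher in shoots throughout. Of the 35 shoot differences under Zn deficiency, 33 stayed negative with quantile normalization, and the interaction was negative in 32 to 35. The median in Zn-deficient plants was 2.60 to 3.23 without 1 array, that of hma2 hma4 plants 3.35 with either centring and 2.77 with the constant of 58, and that of 21-day WT plants 3.02 with that constant; median centring put the median of all probe sets between control tissues at 0.0501, where it was -0.353 as reported. Counts between the experiments were 3 to 7 without 1 array. Signs turned for genes near 0: rbcL in Zn-deficient shoots (0.00434 with quantile normalization, -0.851 to 0.581 without 1 array), ycf4 in hma2 hma4 shoots (-0.416 to 0.866 without 1 array), ycf3 between Zn-deficient tissues (0.316 with quantile normalization, 0.382 and 0.388 with the centrings, 0.03 with the constant of 58, -1.05 to 0.983 without 1 array), and atpA there (-0.281 to 1.37 without 1 array). The causes were not tested. With 2 arrays per group, changes under about 2-fold were often beyond what the arrays could show, and in Zn-deficient shoots larger ones were too. There the estimates of atpI (-1.55), psbK (-1.45) and atpA (-1.41), for example, were beyond 2-fold and did not pass as reported. The lack of called genes in Zn-deficient shoots therefore does not exclude changes of 2-fold or more.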
